A study of Mus musculus with 9 samples.

Results

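The genes described here encode the enzymes that write and erase marks on histones and on DNA. They are the rows of the count table whose symbol starts with Kdm, Hdac, Sirt, Tet, Dnmt, Kmt, Kat or Setd followed by a digit. There were 68 such genes among 22100 rows, and 66 of them passed the filter on low counts, as did 13090 genes in all. RNA came from cultured astrocytes of the mouse cortex, grown on poly-L-lysine in a high-glucose medium with fetal bovine serum, in 9 libraries. The control group was unstimulated and is labelled with the 3 d time (n = 3). The 90 min group received 50 µM noradrenaline for 90 min and was collected at that point (n = 3). The 3 d group had the same exposure, then medium without noradrenaline, and was collected 3 d after the application (n = 3). All 3 groups share the culture conditions, and strain, sex and age of the mice are not given in the labels. A control taken at 90 min is not among the samples analysed here, so at 90 min the treatment and the time of collection cannot be told apart. The comparisons ask which of these enzyme genes differ while noradrenaline is present, and which of them still differ 3 d later.

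Acetylation of histone tails loosens chromatin and is put on by acetyltransferases (Kat genes) and taken off by the zinc-dependent deacetylases (Hdac genes) and the NAD-dependent sirtuins (Sirt genes). Lysine methylation is written by SET-domain enzymes (Kmt and Setd genes) and removed by demethylases (Kdm genes), and its effect depends on the lysine: H3K4 methylation marks active promoters and enhancers, whereas H3K9 and H3K27 methylation marks silent chromatin. On DNA, the Dnmt enzymes methylate cytosine and the Tet enzymes oxidise methylated cytosine, which starts its removal. Noradrenaline is released in the cortex during arousal and acts on adrenergic receptors of astrocytes, which raise calcium and cyclic AMP inside the cell. Class IIa deacetylases (Hdac4, Hdac5, Hdac7 and Hdac9) shuttle between nucleus and cytoplasm under the control of kinases that respond to such signals.

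Promoter sequences are shown for the member with the largest rise, Hdac5, for Tet2, and for Hdac4, a class IIa relative whose level did not pass the test. They are taken from RefSeq windows of 250 bases before and 50 bases after a transcription start on GRCm38.p6. That build is older than that of the counts, and windows were matched by symbol. Capitals mark TGACG or its reverse complement, the core of the cyclic AMP response element to which the factor CREB binds. All 3 genes lie on the minus strand, and each sequence reads 5′ to 3′ along the gene. For Tet2 only the last 30 bases of its window are shown, which lie after the start and do not include it.
Hdac5 upstream, chr11:102230173-102230422: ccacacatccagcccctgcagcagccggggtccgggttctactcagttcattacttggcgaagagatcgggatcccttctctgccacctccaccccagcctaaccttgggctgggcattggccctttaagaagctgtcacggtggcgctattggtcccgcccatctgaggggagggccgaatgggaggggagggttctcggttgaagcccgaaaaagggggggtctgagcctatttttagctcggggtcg
Hdac5 start, chr11:102230148-102230177: ggtcgggtcacgTGACGagagTGACGtctc
Tet2 start, chr3:133544341-133544370: cccgccgagcctagagaacagaCGTCAaac
Hdac4 upstream, chr1:92180342-92180591: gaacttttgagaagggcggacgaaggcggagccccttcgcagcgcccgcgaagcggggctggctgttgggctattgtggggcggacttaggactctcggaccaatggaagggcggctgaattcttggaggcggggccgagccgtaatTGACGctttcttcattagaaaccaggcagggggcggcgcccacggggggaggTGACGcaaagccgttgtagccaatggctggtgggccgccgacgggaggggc
Hdac4 start, chr1:92180317-92180346: ggggcggggctggggcgccTGACGggcgta
The 250 bases upstream of Hdac5 held no TGACG match, and its 2 matches began 8 and 17 bases after the start. Tet2 had 1 match, 43 bases after the start. Hdac4 had 3 matches, beginning 103 and 51 bases before the start and 15 bases after it. The part of these matches in the levels of the 3 genes was not tested.

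A window was found for 55 of the 68 members, and 17 of those had more than 1 window. On both strands, the full element TGACGTCA was found in 0 of the 55, and in 3.61% of 10202 tested genes with a window. Its core TGACG, which the full element contains, was found in 19 of 55 members (34.5%) and in 34.9% of tested genes. Among the 5 risen members with a window it was found in 2, and among 23 members that fell it was found in 7. The AP-1 motif TGANTCA, bound by Fos and Jun proteins, was found in 7 of 55 members (12.7%) and in 6.18% of tested genes. Of those 7 members, 6 were lower at 90 min and 1 was not called. These letter matches describe the windows and show no binding.

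Libraries held between 15529158 and 18729980 counts and between 14920 and 15397 genes with at least 1 count, and 3 counts correspond to between 0.160 and 0.193 CPM (the unit CPM is used here for counts scaled to a common library size with TMM factors). Of 12 astrocyte markers, 11 passed the filter, and 2 of them were called higher and 6 lower at 90 min. Over all tested genes, 17.5% were higher and 15.5% lower. Summed levels of the astrocyte markers were 736 to 765 CPM in controls, 697 to 730 CPM at 90 min and 728 to 740 CPM at 3 d. Sox9, a glial transcription factor, stood at 248 ± 6.59 CPM (SD, n = 3) and the glutamate transporter gene Slc1a3 at 131 ± 1.42 CPM (SD, n = 3) in controls, whereas Gfap stood at 1.13 ± 0.293 CPM (SD, n = 3) and Gjb6 was at 0. Markers of other cells were present at differing levels. Summed pericyte and smooth muscle markers stood at 736 to 745 CPM in controls, 522 to 584 CPM at 90 min and 669 to 687 CPM at 3 d. Summed fibroblast markers reached 5008 to 5786 CPM in controls, 5083 to 6443 CPM at 90 min and 4431 to 5212 CPM at 3 d. Ependymal markers summed to 75.0 to 82.3, 31.9 to 38.6 and 82.9 to 88.0 CPM, and oligodendrocyte-lineage markers to 29.2 to 31.0, 39.2 to 40.1 and 28.4 to 30.7 CPM, in the same order. Endothelial markers summed to 49.5 to 54.9, 43.8 to 45.9 and 51.0 to 58.4 CPM, neuronal markers to 138 to 139, 140 to 158 and 131 to 145 CPM, and microglial markers to 7.15 to 8.10, 6.79 to 10.1 and 5.67 to 7.37 CPM. In all libraries, P2ry12, C1qa and C1qb of 9 microglial markers and Olig1 and Olig2 of 8 oligodendrocyte-lineage markers were at 0. So were Cldn5 of 6 endothelial markers and Tmem212 of 5 ependymal markers. The other markers of these lists make up the sums given above. The part of these other cells in the enzyme results was not tested.

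At 90 min the enzyme genes fell more often than they rose, and at 3 d none differed from control. Of the 66 tested members, 28 (42.4%) were lower than control at 90 min and 6 (9.09%) were higher, at an edgeR adjusted p below 0.05. Over all 13090 tested genes, 15.5% were lower and 17.5% were higher. The median log2 fold change of the members was −0.10, against −0.00 over all tested genes. The members are well expressed, so the background was also taken over the 10244 genes with a mean of at least 3 on the log2 CPM scale. There, 17.7% were lower and 20.0% higher, against 28 (45.9%) and 6 (9.84%) of the 61 members above that level. The falls were mostly small: among called genes, 8 members fell and 3 rose by at least 0.5 on the log2 scale, a size that 3.73% and 6.38% of all tested genes reached. In bulk RNA, fewer cells of a type and less RNA per cell cannot be told apart.

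Of the 18 Kdm genes, 11 were lower and 1 higher. Of the 11 deacetylases 4 were lower and 2 higher, of the 8 Kat genes 3 were lower and 0 higher, and of the 8 Kmt genes 3 were lower and 1 higher. Setd genes had 2 of 8 lower and sirtuins 2 of 7 lower, with 0 higher in both. Among DNA-modifying enzymes, 1 of 3 tested Dnmt genes was higher and 1 lower, and of the 3 Tet genes 1 was higher and 2 lower. The 3 libraries of a group did not overlap with control for 31 members that were lower and 8 that were higher at 90 min, against 21.2% and 22.3% of all tested genes.

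**Figure D1:**
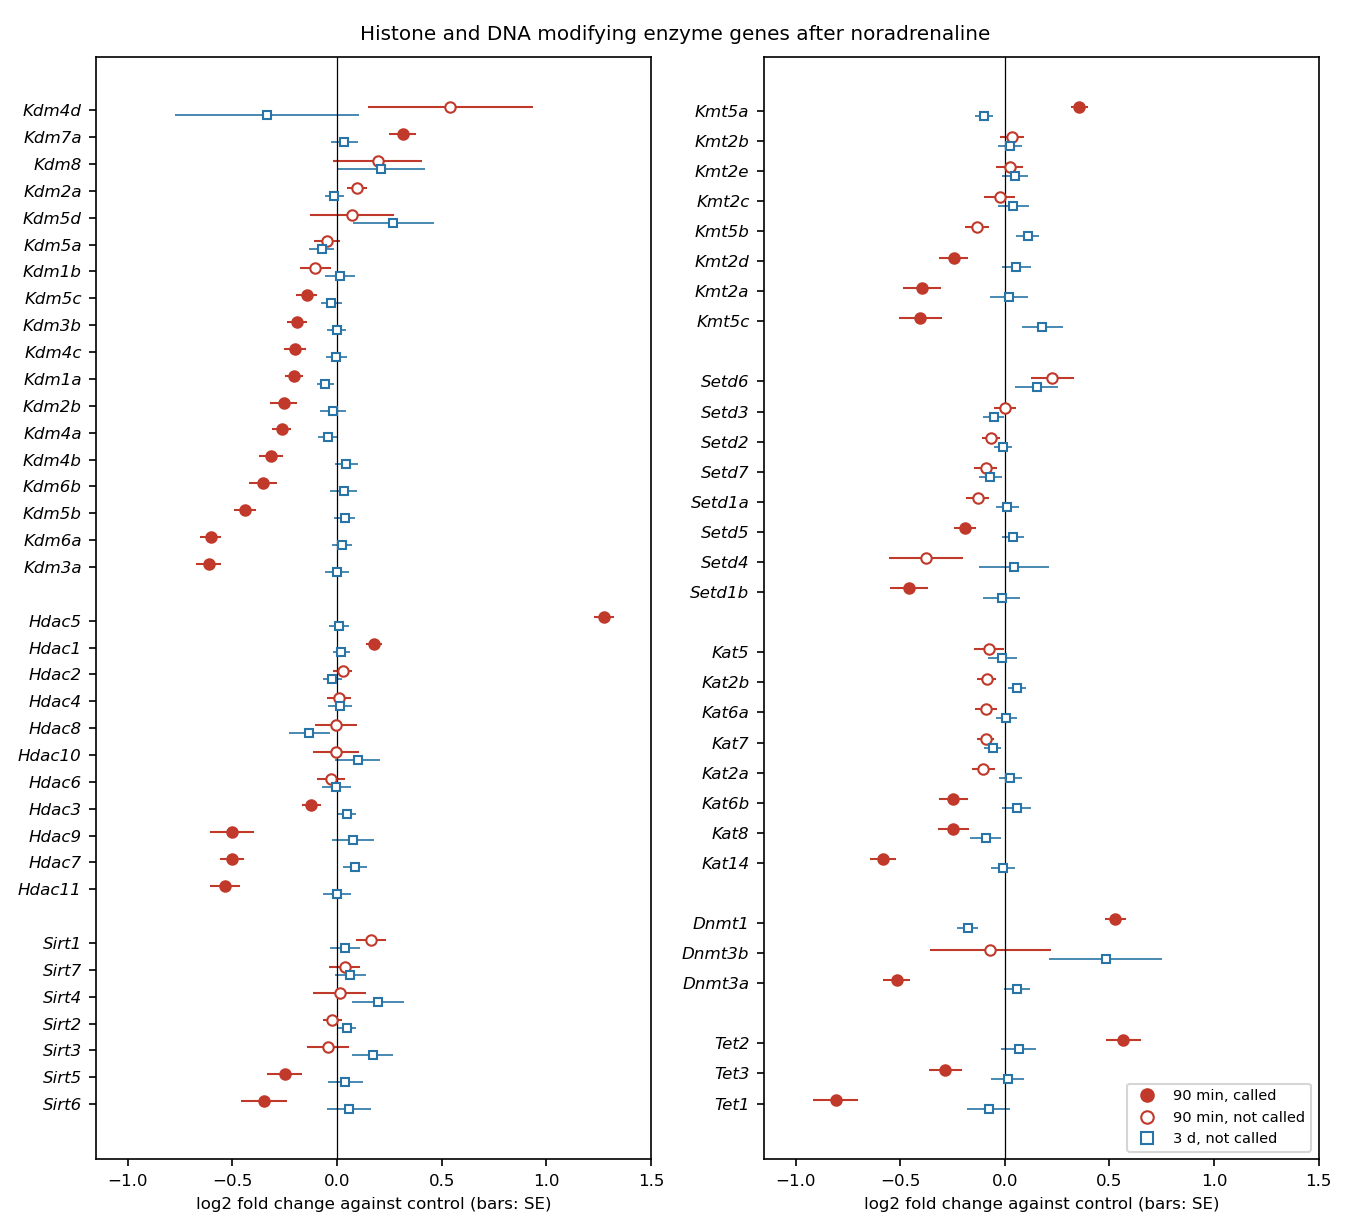
Log2 fold change against control (x axis) of the 66 tested enzyme genes, grouped by class, at 90 min (red circles, filled where called) and at 3 d (blue squares, none called), with bars of 1 SE. The 90 min circles lie mostly left of 0, with Hdac5 far to the right, and the 3 d squares lie close to 0 except for genes of low level such as Kdm4d and Dnmt3b.

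Class IIa deacetylases moved in opposite directions. These proteins hold almost no catalytic activity of their own in vertebrates and act as corepressors of MEF2 transcription factors. Hdac5 stood at 127, 127 and 116 CPM in the control libraries, at 297, 311 and 287 at 90 min, and at 123, 119 and 130 at 3 d. All 3 libraries at 90 min lay far above the other 6, which overlapped. The rise was 2.42-fold (log2 1.28, SE 0.05, edgeR adjusted p = 3.16e-13), the largest among the members. Hdac7, best known in endothelium and thymocytes, stood at 73.7, 80.1 and 71.4 CPM in the control libraries, at 52.2, 50.0 and 56.8 at 90 min, and at 82.8, 80.8 and 75.0 at 3 d. It was lower in all 3 libraries at 90 min and fell by 29.4% (log2 −0.50, SE 0.06, edgeR adjusted p = 2.32e-06). Hdac9 stood at 15.5, 13.9 and 14.3 CPM in the control libraries, at 11.4, 9.23 and 10.3 at 90 min, and at 13.7, 17.1 and 15.4 at 3 d. Its 90 min libraries lay below all others, and it fell by 29.4% (log2 −0.50, SE 0.10, edgeR adjusted p = 0.00107). Hdac4 had mean levels of 64.8 ± 1.67 (controls) and 65.2 ± 5.64 CPM (90 min; SD, n = 3 each), with a 95% interval of the log2 difference from −0.11 to 0.13 (edgeR adjusted p = 0.909).

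Of the class I deacetylases Hdac1, a catalytic subunit of the Sin3, NuRD and CoREST corepressor complexes, rose and Hdac3 fell. Hdac1 stood at 140, 134 and 137 CPM in the control libraries, 160, 154 and 151 at 90 min, and 140, 137 and 140 at 3 d. The 90 min libraries were above all others by a small margin, and the rise was 13.0% (log2 0.18, SE 0.04, edgeR adjusted p = 0.00218). Hdac2, its close relative, had a log2 fold change of 0.03 (edgeR adjusted p = 0.700), and Hdac8 one of −0.01 (edgeR adjusted p = 0.976). Hdac3, the deacetylase of the NCoR and SMRT complexes, had a log2 fold change of −0.12 with an edgeR adjusted p of 0.0490, the weakest call. That call was lost without control 1 (0.129), control 2 (0.173), 90 min 2 (0.127), 90 min 3 (0.0882) or 3 d 1 (0.0671), and with DESeq2 (0.0731). Hdac11, the only class IV deacetylase, stood at 37.5, 33.7 and 33.8 CPM in the control libraries, 24.6, 25.7 and 22.2 at 90 min, and 35.7, 34.2 and 35.4 at 3 d. All 90 min libraries were lower than the rest, and the level fell by 31.0% (log2 −0.53, SE 0.07, edgeR adjusted p = 9.24e-06). The class IIb genes Hdac6, a cytoplasmic tubulin deacetylase, and Hdac10, a polyamine deacetylase, had log2 fold changes of −0.03 and −0.01 and were not called.

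Of the 7 sirtuins, Sirt5 and Sirt6 were lower at 90 min, and both calls were fragile. Sirt6, a nuclear deacetylase of H3K9 and H3K56, stood at 13.3, 13.4 and 10.5 CPM in controls and at 8.95, 10.0 and 10.3 CPM at 90 min. The highest 90 min library lay just under the lowest control, and the log2 difference was −0.35 (SE 0.11, edgeR adjusted p = 0.0200). That call was lost without control 1 (0.1003), control 2 (0.0902) or 90 min 1 (0.0887). Sirt5, a mitochondrial enzyme that removes succinyl and malonyl groups, had a log2 fold change of −0.25 (edgeR adjusted p = 0.0310), and its call was lost without control 1 (0.0647), control 3 (0.106), 90 min 1 (0.173) or 90 min 2 (0.0617). The other 5 sirtuins had log2 fold changes from −0.04 (Sirt3) to 0.16 (Sirt1, edgeR adjusted p = 0.0947) and were not called.

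**Figure D2:**
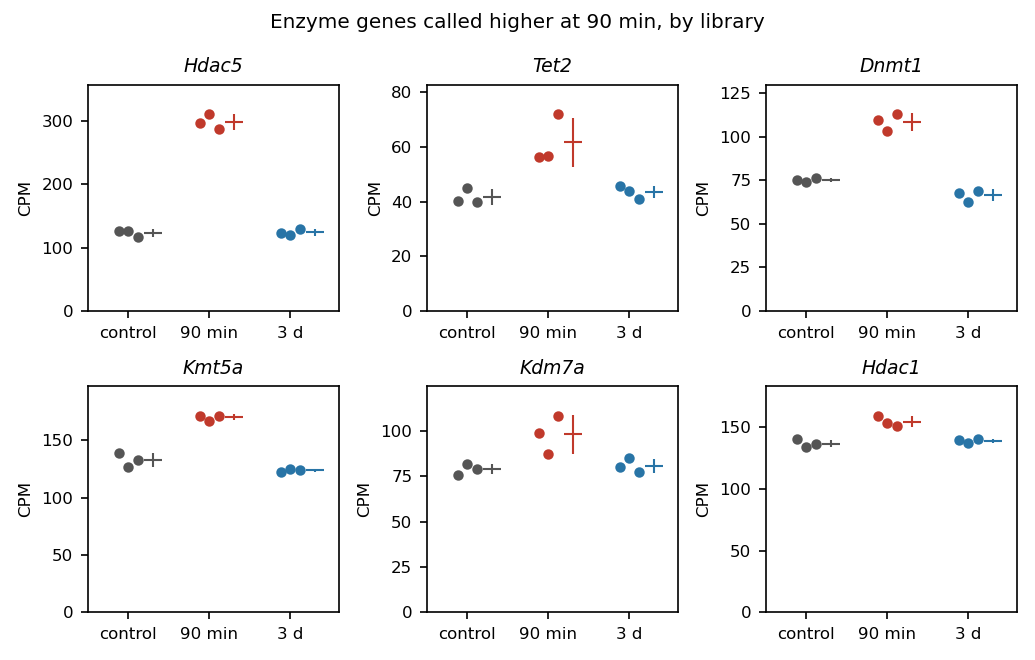
Level in CPM (y axis, from 0) in each library (points) of the 6 enzyme genes that were higher at 90 min, by group, with the group mean (horizontal dash) and SD (vertical bar). In each panel the 3 red points at 90 min lie above all control and 3 d points, most widely for Hdac5 (287 to 311 CPM against 116 to 130 CPM).

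Among the demethylases, the largest falls were those of Kdm3a and Kdm6a, erasers of H3K9 and H3K27 methylation. Kdm6a (UTX), an X-linked H3K27 demethylase and a subunit of MLL3 and MLL4 complexes, stood at 58.6, 61.6 and 60.1 CPM in the control libraries, 40.5, 38.0 and 40.2 at 90 min, and 63.0, 61.1 and 59.1 at 3 d. The 90 min libraries were well below the rest, and the level fell by 34.2% (log2 −0.60, SE 0.05, edgeR adjusted p = 2.44e-08). Its relative Kdm6b (JMJD3), known as an inducible gene in macrophages, stood at 55.0, 58.9 and 54.7 CPM in the control libraries, 43.9, 40.1 and 48.0 at 90 min, and 60.9, 58.0 and 53.3 at 3 d. It was lower in each 90 min library than in any other and fell by 21.8% (log2 −0.35, SE 0.07, edgeR adjusted p = 0.000383). An antisense gene of Kdm6b is named in the annotation. No source used here says whether counting used strand, so the Kdm6b value is uncertain.

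Kdm3a, an H3K9 demethylase required for hormone receptor targets and spermiogenesis, stood at 96.7, 98.8 and 89.6 CPM in the control libraries, 60.7, 57.2 and 68.7 at 90 min, and 93.0, 97.5 and 94.8 at 3 d. No 90 min library came near the others, and the level fell by 34.6% (log2 −0.61, SE 0.06, edgeR adjusted p = 1.95e-07). Its relative Kdm3b had a smaller log2 fold change of −0.19 (edgeR adjusted p = 0.00450). The Kdm4 genes encode demethylases of H3K9 and H3K36, and their 3 well-expressed members fell together. The log2 fold change was −0.32 for Kdm4b (edgeR adjusted p = 0.000273), −0.26 for Kdm4a (edgeR adjusted p = 0.000166) and −0.20 for Kdm4c (edgeR adjusted p = 0.00589). Kdm4d, the testis-enriched member, was near the floor at 0.397 to 1.20 CPM over all 9 libraries and was not called.

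Of the H3K4 demethylases Kdm5b, Kdm1a and Kdm5c were called lower. Kdm5b, which keeps H3K4 methylation focused at promoters, stood at 101, 95.4 and 105 CPM in the control libraries, 70.1, 75.9 and 76.6 at 90 min, and 102, 109 and 98.5 at 3 d. The 90 min libraries lay below the others (log2 −0.44, SE 0.05, edgeR adjusted p = 3.17e-06). Kdm1a (LSD1), the flavin-dependent demethylase of the CoREST complex, had one of −0.21 (edgeR adjusted p = 0.000807). Kdm5c, an X-linked gene whose loss causes intellectual disability, stood at 164, 175 and 166 CPM in controls and 145, 148 and 164 CPM at 90 min, so the groups overlapped. Its log2 fold change was −0.15 (edgeR adjusted p = 0.0335), and the call was lost without control 2 (0.145), control 3 (0.0573), 90 min 1 (0.156) or 90 min 2 (0.114). Kdm5a, Kdm1b and the Y-linked Kdm5d had log2 fold changes of −0.05, −0.10 and 0.07 and were not called.

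Of the demethylases that act on H3K36, Kdm2b, which also brings a polycomb complex to CpG islands, fell (log2 −0.25, SE 0.06, edgeR adjusted p = 0.00505), whereas its paralog Kdm2a had a log2 fold change of 0.10 and was not called. Kdm7a, a demethylase of H3K9 and H3K27, was the only Kdm gene called higher. JmjC genes under other names are given further below. It stood at 76.0, 81.9 and 79.3 CPM in the control libraries, 98.8, 87.4 and 109 at 90 min, and 80.3, 85.0 and 77.5 at 3 d. The lowest 90 min library was only a little above the highest of the others (log2 0.31, SE 0.06, edgeR adjusted p = 0.000916). Kdm8, at 2.22 to 3.50 CPM over all libraries, was not called.

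Among the H4K20 methyltransferases 1 gene was higher, 1 was lower and 1 was not called. Kmt5a (SET8) adds the first methyl group and is needed for the passage through the cell cycle. It stood at 139, 126 and 133 CPM in the control libraries, 172, 167 and 171 at 90 min, and 123, 125 and 124 at 3 d. All 90 min libraries were higher than the rest, by 28.0% (log2 0.36, SE 0.04, edgeR adjusted p = 2.34e-06). Kmt5c, which adds further methyl groups in heterochromatin, stood at 17.2, 19.8 and 15.7 CPM in the control libraries, 12.8, 11.8 and 15.3 at 90 min, and 20.7, 18.9 and 20.1 at 3 d. Its 90 min libraries were lower, the closest pair being 15.3 and 15.7 CPM (log2 −0.40, SE 0.10, edgeR adjusted p = 0.00578). The related Kmt5b had a log2 fold change of −0.13 and was not called (edgeR adjusted p = 0.0819).

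Among the H3K4 methyltransferases, Kmt2a (MLL1), which maintains Hox gene expression, stood at 197, 234 and 195 CPM in the control libraries, 151, 140 and 185 at 90 min, and 223, 226 and 187 at 3 d. The 90 min libraries spread widely and still lay below every other library (log2 −0.40, SE 0.09, edgeR adjusted p = 0.00230). Setd1b, a SET1 methyltransferase, stood at 45.7, 56.0 and 43.7 CPM in the control libraries, 33.9, 31.7 and 40.2 at 90 min, and 49.2, 49.6 and 44.9 at 3 d. It was lower in each 90 min library (log2 −0.46, SE 0.09, edgeR adjusted p = 0.000660), whereas its paralog Setd1a had a log2 fold change of −0.13 and was not called (edgeR adjusted p = 0.0852). Kmt2d (MLL4), the main enhancer H3K4 monomethyltransferase, stood at 120, 136 and 120 CPM in controls and 98.8, 99.0 and 120 CPM at 90 min, with overlap. Its log2 fold change was −0.24 (edgeR adjusted p = 0.0118), and the call was lost without control 2 (0.0872), 90 min 1 (0.0725) or 90 min 2 (0.0573). The remaining genes named Kmt2, placed here by symbol only, are Kmt2b, Kmt2c and Kmt2e. They had log2 fold changes of 0.03, −0.02 and 0.02 and were not called.

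Of the remaining Setd genes, Setd5, an intellectual disability gene, had a log2 fold change of −0.19 (edgeR adjusted p = 0.00874), and its call was lost without control 2 (0.0557) or 90 min 2 (0.0530). Setd2, the writer of H3K36 trimethylation, had a log2 fold change of −0.06, and Setd3, the actin histidine methyltransferase, had one of 0.00. Setd7, Setd6 and Setd4 had values of −0.09, 0.23 and −0.38, and none of these 5 genes was called.

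**Figure D3:**
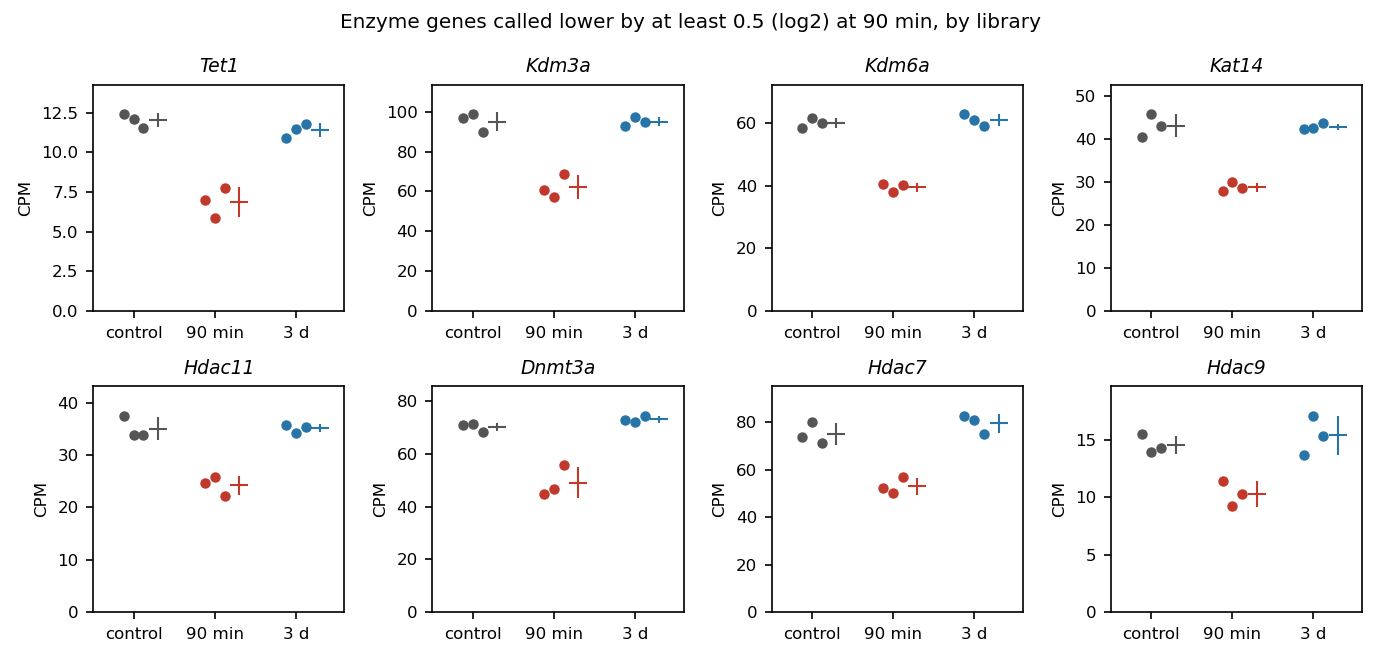
Level in CPM (y axis, from 0) in each library (points) of the 8 enzyme genes that were lower at 90 min by at least 0.5 on the log2 scale, by group, with the group mean (horizontal dash) and SD (vertical bar). The 3 red points at 90 min lie below all control and 3 d points in each panel, and the blue 3 d points lie at the height of the controls.

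All 8 Kat genes had negative log2 fold changes at 90 min, and 3 of them were called. Kat14 (CSRP2BP), the second acetyltransferase of the ATAC complex, stood at 40.5, 45.8 and 43.0 CPM in the control libraries, 27.9, 29.95 and 28.5 at 90 min, and 42.3, 42.4 and 43.6 at 3 d. Its 90 min libraries lay close together and well below the rest, and the level fell by 33.2% (log2 −0.58, SE 0.06, edgeR adjusted p = 5.43e-07). Kat8 (MOF), which acetylates H4K16, had a log2 fold change of −0.25 (edgeR adjusted p = 0.0151), and its call was lost without control 2 (0.0701) or 90 min 3 (0.0745). Kat6b (MORF), an H3K23 acetyltransferase important in brain development, had a log2 fold change of −0.25 (edgeR adjusted p = 0.0103), and its call was lost without control 1 (0.0714) or 90 min 1 (0.0655). The annotation names pseudogenes of Kat6b and of Kat2b, and their values are uncertain to that extent. Kat2a and Kat2b, the GCN5 and PCAF enzymes, had log2 fold changes of −0.10 and −0.09, and Kat5, Kat6a and Kat7 had values from −0.09 to −0.08. None of these 5 genes was called.

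Of the DNA methyltransferases Dnmt1 rose and Dnmt3a fell. Dnmt1, which copies methylation to the new strand after replication, stood at 75.2, 74.2 and 76.7 CPM in the control libraries, 110, 103 and 113 at 90 min, and 67.9, 62.7 and 69.2 at 3 d. The 3 groups did not overlap, with 90 min highest and 3 d lowest. The rise at 90 min was 1.44-fold (log2 0.53, SE 0.05, edgeR adjusted p = 1.02e-07). Dnmt3a, the main de novo methyltransferase of the brain, stood at 70.8, 71.0 and 68.2 CPM in the control libraries, 44.8, 46.5 and 55.7 at 90 min, and 72.6, 71.9 and 74.4 at 3 d. It was lower in all 90 min libraries, and fell by 30.1% (log2 −0.52, SE 0.06, edgeR adjusted p = 4.17e-06). A pseudogene and an antisense gene of Dnmt3a are named in the annotation, so its value is uncertain. Dnmt3b stood at 0.972 to 2.79 CPM over all libraries and was not called, and Dnmt3c and Dnmt3l had at most 3 counts in any library and were not tested.

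Dnmt1 and Kmt5a serve dividing cells, so the cell cycle lists are given beside them. The 24 S phase genes summed to 666 to 689 CPM in controls, 788 to 801 CPM at 90 min and 602 to 660 CPM at 3 d, and 7 of them were higher and 0 lower at 90 min. The 25 G2 and M phase genes summed to 407 to 456 CPM, 411 to 511 CPM and 325 to 402 CPM, and 3 were higher and 0 lower at 90 min. The shares higher were 29.2% of the S phase and 12% of the G2 and M phase genes, against 17.5% of all tested genes. Over all tested genes 15.5% were lower. The S phase sums and Dnmt1 thus had the same order of groups, whereas the G2 and M phase sums of control and 90 min overlapped and those at 3 d lay below both. At 3 d against control 0 genes of either list were called. Negative log2 fold changes were seen there for 21 of 24 S phase and 24 of 25 G2 and M phase genes. At an unadjusted p below 0.05 by edgeR's test there were 6 and 14. Of all 13090 tested genes, 6496 had negative values and 1221 had an unadjusted p below 0.05 by that test. The part of cell division in the Dnmt1 and Kmt5a values was not tested.

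All 3 Tet dioxygenase genes were called, in differing directions. Tet1, known from embryonic stem cells and germ cells, stood at 12.4, 12.1 and 11.6 CPM in the control libraries, 6.99, 5.89 and 7.75 at 90 min, and 10.9, 11.5 and 11.8 at 3 d. Every 90 min library was far below the rest, and the level fell by 42.9%, the largest fall among the members (log2 −0.81, SE 0.11, edgeR adjusted p = 9.82e-06). Tet2, a tumour suppressor of blood cells, stood at 40.1, 45.0 and 39.7 CPM in the control libraries, 56.3, 56.6 and 72.0 at 90 min, and 45.6, 44.0 and 40.9 at 3 d. All 90 min libraries were higher, with 90 min 3 the highest, and the rise was 1.48-fold (log2 0.57, SE 0.08, edgeR adjusted p = 2.95e-05). Tet3, abundant in brain, stood at 74.5, 84.7 and 73.3 CPM in the control libraries, 64.4, 54.2 and 72.4 at 90 min, and 82.7, 75.6 and 76.2 at 3 d. The closest pair of a 90 min and a control library, at 72.4 and 73.3 CPM, nearly touched, and the log2 fold change was −0.28 (SE 0.08, edgeR adjusted p = 0.0109). The Tet3 call was lost without control 2 (0.0790) or 90 min 2 (0.0616).

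These moves changed the make-up of families. For this, levels were divided by the length of the longest coding transcript, and each gene was given as a share of its family's summed level per kb. Tet2 held 36.3% ± 0.152 of the Tet level in controls, 51.5% ± 2.28 at 90 min and 37.3% ± 0.952 at 3 d (SD, n = 3 each). Tet3 held 56.9% ± 0.461, 44.8% ± 2.10 and 56.4% ± 0.915, so per kb Tet2 held more than Tet3 at 90 min. This order turns on the length division, since in CPM the means at 90 min were 61.6 for Tet2 and 63.7 for Tet3. Tet1 held 6.73% ± 0.472, 3.68% ± 0.182 and 6.26% ± 0.499. Dnmt1 held 62.6% ± 1.11 of the Dnmt level in controls, 77.2% ± 1.59 at 90 min and 58.2% ± 0.783 at 3 d, and Dnmt3a held 35.3% ± 0.913, 21.0% ± 1.54 and 38.7% ± 0.980. The lead of Dnmt1 over Dnmt3a per kb was thus widest at 90 min. In CPM the means of Dnmt1 and Dnmt3a were 75.3 and 70.0 in controls and 109 and 49.0 at 90 min. At 3 d they were 66.6 and 73.0 CPM, so the order there turns on the length division.

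Among class IIa deacetylases, Hdac5 held 47.9% ± 0.945 of the level per kb in controls, 73.7% ± 1.09 at 90 min and 47.0% ± 2.18 at 3 d. Hdac7 held 33.5% ± 0.978, 15.1% ± 1.37 and 34.6% ± 1.63. Kdm6a and Kdm6b, which both fell, kept nearly equal shares, with Kdm6a at 54.5% in controls, 50.3% at 90 min and 54.4% at 3 d. On the same scale over all members, Hdac1 had the highest level in controls (67.2 ± 1.55 CPM per kb), followed by Sirt2 (57.8) and Hdac3 (56.4). Kdm4d (0.228) and Kdm5d (0.266) were lowest among those tested. Shares within a family rise for any member that falls less than its relatives.

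**Figure D4:**
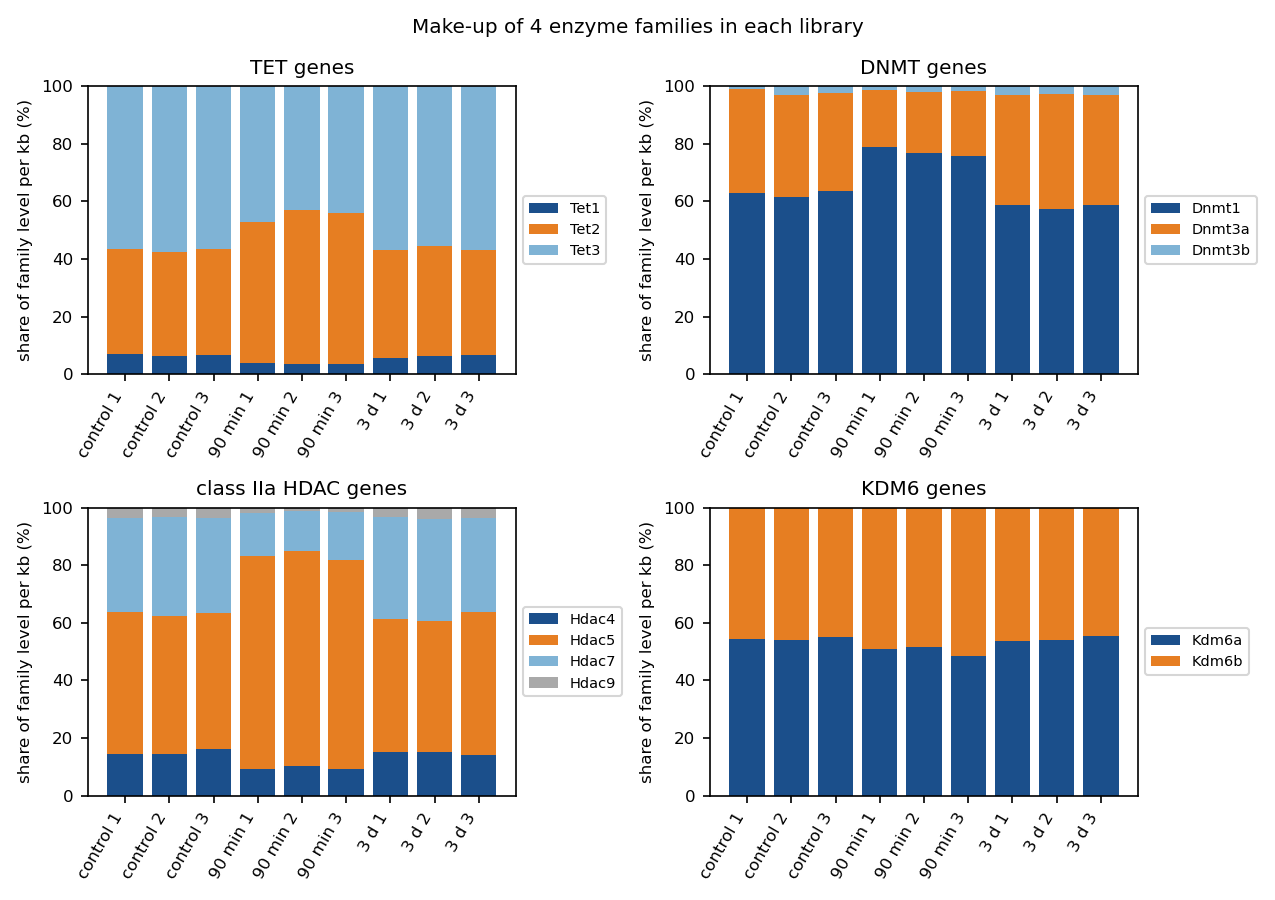
Share of the family's summed level per kb (y axis, percent) held by each member of the Tet, Dnmt, class IIa Hdac and Kdm6 families in each of the 9 libraries (bars). The share of Tet2, Dnmt1 and Hdac5 is larger in the 3 libraries at 90 min than in the other 6, and the Kdm6 pair stays near even.

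At 3 d after noradrenaline, 0 of the 66 members differed from control by edgeR's quasi-likelihood test, where 0.0382% of all tested genes were higher and 0.0764% lower. At an unadjusted p below 0.05 by edgeR's test there were 2 of the 66 members, Dnmt1 and Kmt5a, against 1221 of 13090 tested genes. DESeq2 gave 0 calls and 2 members at an unadjusted p as well. For the 61 well-expressed members the log2 fold changes lay between −0.18 and 0.20, and their 95% intervals reached from −0.34 to 0.46, so changes beyond that size are outside those intervals. The smallest p belonged to Dnmt1, with a log2 fold change of −0.18 (95% interval −0.28 to −0.07, edgeR adjusted p = 0.226). Next came Kmt5a with −0.10 (−0.19 to −0.01, edgeR adjusted p = 0.477), Kmt5b with 0.11 (−0.01 to 0.23, edgeR adjusted p = 0.578) and Kmt5c with 0.18 (−0.03 to 0.39, edgeR adjusted p = 0.616). All 3 libraries at 3 d lay on 1 side of the controls for 2 higher members (Dnmt3a, Kat2b) and 4 lower ones (Dnmt1, Kat8, Kdm1a, Kmt5a), against 8.03% and 8.11% of all tested genes. These 6 were named after their values were seen.

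Between 90 min and 3 d the direct comparison gave 28 members higher at 3 d (42.4%) and 6 lower (9.09%), where 18.7% and 20.4% of all tested genes were called. Among genes of at least 3 on the log2 CPM scale, 20.6% were higher and 23.5% lower, against 45.9% and 9.84% of the members there. This comparison shares the 90 min libraries with the first, and the values are given side by side. Hdac5 was lower at 3 d than at 90 min (log2 fold change −1.27, edgeR adjusted p = 3.35e-13), Dnmt1 had a log2 fold change of −0.71 (edgeR adjusted p = 1.9e-09) and Tet2 one of −0.50 (edgeR adjusted p = 9.17e-05). Kmt5a had one of −0.46 (edgeR adjusted p = 9.12e-08), Kdm7a of −0.28 (edgeR adjusted p = 0.00204) and Hdac1 of −0.16 (edgeR adjusted p = 0.00482). All 6 members that were higher at 90 min were thus lower again at 3 d.

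Among the members with lower values at 90 min, the log2 fold change from 90 min to 3 d was 0.73 for Tet1 (edgeR adjusted p = 2.9e-05), 0.63 for Kdm6a (edgeR adjusted p = 1.29e-08), 0.61 for Kdm3a (edgeR adjusted p = 1.77e-07) and 0.59 for Hdac7 (edgeR adjusted p = 2.68e-07). It was 0.58 for Dnmt3a, Hdac9 and Kmt5c, 0.57 for Kat14 and 0.53 for Hdac11, with edgeR adjusted p from 5.76e-07 (Kat14) to 0.000227 (Hdac9). The methyltransferases Setd1b and Kmt2a had values of 0.44 and 0.42, and the demethylases Kdm5b, Kdm6b and Kdm4b had 0.48, 0.39 and 0.36. Smaller values between 0.15 and 0.41 were called for Sirt6, Tet3, Kat6b, Kmt2d, Sirt5, Kdm2b, Setd5, Kdm4a, Kdm4c, Kdm3b, Hdac3 and Kdm1a. Kmt5b (0.24, edgeR adjusted p = 0.00217) and Kat2b (0.14, edgeR adjusted p = 0.0134) were called here and not at 90 min against control. The Kat2b call was lost without 90 min 2 (0.0532) or 3 d 2 (0.0895), and the Sirt5 call without 90 min 1 (0.0784) or 3 d 2 (0.0515). Kat8 (0.16, edgeR adjusted p = 0.104) and Kdm5c (0.12, edgeR adjusted p = 0.0729) were lower at 90 min against control but were not called between 90 min and 3 d, although Kdm5c was called there without 90 min 3 (0.00391).

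Other chromatin genes, in lists of pathway partners, gave a mixed picture at 90 min, and 0 were called at 3 d against control in any of the 15 lists. In each list below, the called genes with the highest and the lowest log2 fold change were picked after their values were seen. Apart from Mef2a, those named are ones whose call held in all alternatives. Gadd45b is named beside its relatives, and its call was not followed through the alternatives. The median log2 fold changes of the lists ran from −0.16 (acetyltransferases named otherwise) to 0.10 (other JmjC genes), against −0.00 over all tested genes. The counts of each list stand beside 17.5% higher and 15.5% lower over all tested genes, and some lists lay near those shares. Polycomb complexes had 3 of 28 genes higher and 9 lower, with a median of −0.06. Aebp2, a PRC2 cofactor, rose from a mean of 128 to 251 CPM (log2 0.98, edgeR adjusted p = 8.05e-13), and Cbx2, a PRC1 subunit, fell from 23.3 to 13.6 CPM (log2 −0.77, edgeR adjusted p = 5.87e-07). The H3K9 methylation and HP1 list had 1 of 12 higher and 5 lower, with Atf7ip, a partner of SETDB1, lower (from 70.6 to 32.9 CPM, log2 −1.10, edgeR adjusted p = 1.09e-09). Among other SET and lysine methyltransferases 2 of 17 were higher and 5 lower. There the H3K79 methyltransferase gene Dot1l rose from 40.4 to 117 CPM and stood at 41.6 CPM at 3 d (log2 at 90 min 1.53, edgeR adjusted p = 5.85e-11).

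Acetyltransferases named otherwise had 2 of 11 higher and 4 lower, among them Crebbp, the CREB-binding coactivator, which fell from 72.5 to 55.6 CPM (log2 −0.38, edgeR adjusted p = 4.07e-05), and Taf1, which rose from 137 to 201 CPM (log2 0.56, edgeR adjusted p = 2.54e-08). Subunits of acetyltransferase complexes had 7 of 33 higher and 13 lower, with a median of −0.10. Jade1, a scaffold of the Kat7 complex, rose from 60.1 to 132 CPM (log2 1.13, edgeR adjusted p = 1.1e-12), and Mbip, a subunit of the ATAC complex that holds Kat14, fell from 30.9 to 19.5 CPM (log2 −0.66, edgeR adjusted p = 4.57e-07). Subunits of the MLL and SET1 complexes had 0 of 12 higher and 2 lower (16.7%), with Pagr1a lower (log2 −0.42, edgeR adjusted p = 0.000169). Acetyl-lysine readers had 2 of 9 higher and 3 lower, with Mllt1 lower (log2 −0.25, edgeR adjusted p = 0.00136).

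Deacetylase corepressor partners had 5 of 29 higher and 9 lower, with a median of −0.04. Sap18, a Sin3 complex subunit, rose from 78.4 to 171 CPM (log2 1.12, edgeR adjusted p = 6.7e-13), and Rcor2, a CoREST subunit, fell from 6.51 to 3.46 CPM (log2 −0.91, edgeR adjusted p = 5.94e-05). Partners of class IIa deacetylases had 3 of 8 higher and 1 lower. Mef2d, a transcription factor that these deacetylases repress, rose from 129 to 240 CPM and stood at 132 CPM at 3 d (log2 at 90 min 0.89, edgeR adjusted p = 2.75e-12). Hdac5 and its partner gene Mef2d were thus both higher at 90 min, whereas Mef2a, another MEF2 gene, was lower. Mef2a fell from 136 to 123 CPM (log2 −0.15, edgeR adjusted p = 0.0133). That call was lost without control 1 (0.0526), control 3 (0.0548), 90 min 1 (0.0533) or 90 min 2 (0.0650).

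DNA methylation partners had 4 of 18 higher and 6 lower, and held related Gadd45 genes that moved in differing directions. Gadd45g, a stress-response gene linked to DNA demethylation, rose from 16.5 to 48.6 CPM (log2 1.56, edgeR adjusted p = 3.33e-11). Gadd45a fell from 84.8 to 26.3 CPM and stood at 81.7 CPM at 3 d (log2 at 90 min −1.69, edgeR adjusted p = 2.56e-14). Gadd45b fell as well, from 41.9 to 30.8 CPM (log2 −0.44, edgeR adjusted p = 0.000124). Other JmjC genes had 4 of 13 higher and 1 lower, led by Hr, which rose from 7.57 to 31.9 CPM (log2 2.07, edgeR adjusted p = 2.74e-11). Arginine methyltransferases had 2 of 8 higher, led by Prmt6 (log2 0.49, edgeR adjusted p = 5.17e-05), and 0 lower. Enzymes of donors and cofactors had 4 of 17 higher (23.5%) and 3 lower (17.6%), near the shares of all tested genes. The NAD synthesis gene Nmnat2 rose from 31.7 to 186 CPM (log2 2.55, edgeR adjusted p = 1.12e-13), and Mat2b, a subunit of the enzyme that makes S-adenosylmethionine, fell from 84.6 to 54.2 CPM (log2 −0.64, edgeR adjusted p = 7.2e-09).

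**Figure D5:**
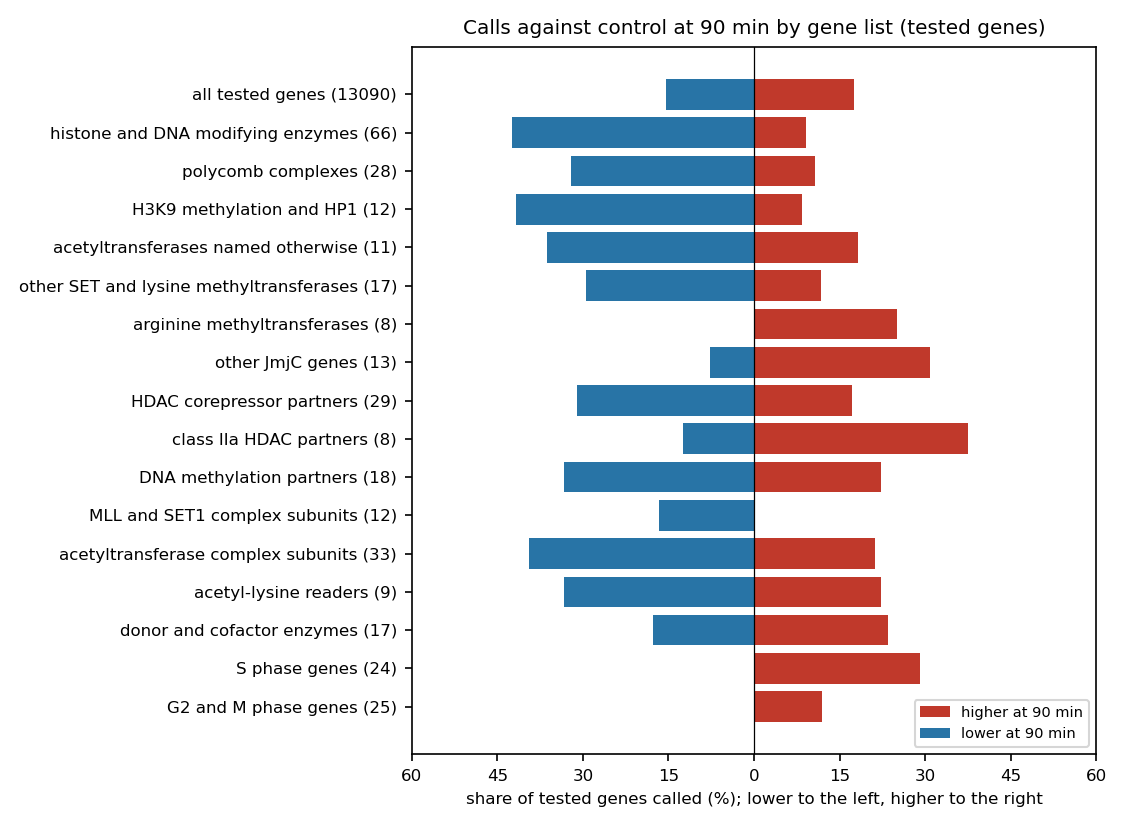
Share of tested genes called at 90 min against control (x axis, percent; lower to the left in blue, higher to the right in red) for all tested genes, the enzyme genes and 15 lists of other chromatin and cell cycle genes, with the number tested in parentheses. The enzyme genes reach 42.4% lower against 15.5% of all tested genes, and the cell cycle, arginine methyltransferase and MLL lists each have calls on 1 side.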

How the data were processed

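Poly(A) RNA of 9 libraries was measured, 3 a group by their titles. The authors deposited 1 table of estimated counts per gene for 22100 rows. The submitters' processing notes name fastp 0.23.4, Salmon 1.8.0 and the mm39 build. The summing of transcripts, any rounding and the use of strand are not given in those notes. All values were whole numbers. Salmon shares reads between similar transcripts.

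The counts were fitted in R 4.3.3 with edgeR 4.0.16 over all 9 libraries (filterByExpr, minimum count 10 and total 15, TMM scaling, a coefficient per group). The 3 contrasts between groups used its quasi-likelihood test (two-sided), with Benjamini-Hochberg adjustment over 13090 genes and calls below 0.05. The SE is the size of the log2 fold change divided by the square root of F, and 95% intervals come from the same fit. CPM used TMM-scaled library sizes. Levels per kb used the longest coding transcript in GENCODE vM21, for length only. The fit was tested on simulated data.

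The members and lists were chosen with earlier results of these data known. All members called, and the 4 with the smallest p at 3 d, are named. Alternatives were RLE size factors, no filter, a minimum count of 50, DESeq2 1.42.0, only the 2 groups compared, a replicate block, and each library left out. The labels do not say that replicates were separate cultures, so the p-values reflect library-to-library spread that could be technical only. Counting floors cover counting error only.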

Additional observations from a re-analysis of the deposited data

How the results depend on the processing

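Over 15 alternatives, between 6 and 7 members were higher and between 21 and 30 lower at 90 min than in control. At 3 d against control 0 were called in each alternative, and between 90 min and 3 d, 26 to 33 were higher and 6 to 7 lower. The lowest count of 21 came without control 2 and the highest of 30 without 90 min 3 or without the filter on low counts. All 6 risen members and 19 of the 28 lower ones held their call in each alternative, and in the comparison of 3 d with 90 min 32 of 34 calls did. None of the calls changed direction. The members that lost a call are named with their values in the report, except that Hdac3 and Kdm5c also lost theirs at 90 min with the replicate block (adjusted p of 0.0823 and 0.0606, edgeR) and that Kdm5c was called between 90 min and 3 d without the filter on low counts (0.0347, edgeR). The cause was not tested. With the replicate block 6 members were higher and 26 lower at 90 min, 0 differed at 3 d, and 28 were higher and 6 lower at 3 d than at 90 min. No sign of pairing by replicate number was seen. The deviations of the 9 same-numbered pairs correlated between −0.15 and 0.05, and those of other pairs between −0.16 and 0.18. Of 9 libraries, 0 matched best with their own number. The deviations were taken within groups of 3, so a weak pairing could be missed. With 3 libraries a group and members at 0.397 to 2.86 CPM (Kdm4d, Kdm5d, Dnmt3b), depth limits what could be detected for those genes.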

Other observations

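The members lower at 90 min had a median longest coding transcript of 5557.5 bases, those higher 5361 bases and those not called 4231 bases. Over all tested genes the medians were 3853 bases for lower, 3469 bases for higher and 2996 bases for those not called. Within groups, control 2 was the highest control for 34 of 66 members and 90 min 3 the highest library at 90 min for 40 of 66. For the 28 lower members these counts were 18 and 18.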
